A study of Mus musculus with 6 samples.

Results

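The B lineage identity genes described here are 9 genes that mark and build the B lymphocyte, Vpreb1, Igll1, Ebf1, Pax5, Cd79a, Cd79b, Blnk, Ms4a1 and Cd22. They were listed by name, and all probe sets annotated to them were taken, 9 genes of the 18192 with a probe set of a single symbol on the array. They carried 17 probe sets of their own, and 1 more that reads both Vpreb1 and Vpreb2. RNA came from bone marrow cells that carry CD71 (transferrin receptor) and Ter-119, a red cell antigen, a gate that is meant to take erythroid precursors and not B cells, and was read on 6 single-colour Affymetrix arrays for the mouse, 3 of Rb-null and 3 of control cells. Rb-null animals were EpoR-GFPcre/+; Rb fl/fl and control animals EpoR-GFPcre/+; Rb fl/+, so both groups carried the GFP-Cre allele at the erythropoietin receptor locus, and the controls carried a floxed Rb allele as well. The labels used here give neither age nor sex. They do not say either whether each array is another animal, and the p-values therefore reflect a spread that may be technical.

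B cells form in the bone marrow in steps that these genes follow. Ebf1 and Pax5 are transcription factors that commit a progenitor to the B lineage and keep it there. Vpreb1 and Igll1 together make the surrogate light chain, which pro-B and pre-B cells pair with the first heavy chain and give up as they mature. Cd79a and Cd79b are the signalling chains of the pre-B and B cell receptors, and Blnk is the adaptor that passes the signal on from the kinase Syk. Ms4a1, which encodes CD20, and Cd22, an inhibitory receptor that binds sialic acid, belong to the surface of later B cells.

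Promoter windows show which binding motifs the members share and how alike Vpreb1 and its copy Vpreb2 are. The RefSeq table of promoter windows (GRCm38.p6, 250 bases before to 50 after the start) held 7 of the 9 genes, in 8 windows. Motifs searched on both strands were the E-box CAGGTG, a site of the factor E2A, the octamer ATTTGCAT, the ETS motif CAGGAAGT and the EBF motif, read as TCCC and GGGA with any 2 bases between them. In the member windows 0 matches overlapped another. The E-box was in 5 of the 8 windows, those of Cd79a, Cd22, Igll1, Vpreb1 and Blnk, and in 20.2% of all 32851 windows of this length. The ETS motif was in those of Cd79a and Blnk (3.33% of all windows), the octamer in that of Blnk (1.74%), and the EBF motif in that of Cd22 (0.904%). A match is a run of letters and not a shown site. Windows are given for a surrogate light chain gene, for the receptor chain Cd79a, and for the adaptor and the inhibitory receptor that hold the other motifs, with all motif matches in capitals.
Igll1, chr16:16863936-16864235, minus strand: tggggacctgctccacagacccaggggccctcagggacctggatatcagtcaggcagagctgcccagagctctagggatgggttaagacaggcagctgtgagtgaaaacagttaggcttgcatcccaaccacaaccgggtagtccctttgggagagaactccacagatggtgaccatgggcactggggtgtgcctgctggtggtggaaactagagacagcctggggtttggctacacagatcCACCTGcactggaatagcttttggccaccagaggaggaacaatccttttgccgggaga
Cd79a, chr7:24897247-24897546, plus strand: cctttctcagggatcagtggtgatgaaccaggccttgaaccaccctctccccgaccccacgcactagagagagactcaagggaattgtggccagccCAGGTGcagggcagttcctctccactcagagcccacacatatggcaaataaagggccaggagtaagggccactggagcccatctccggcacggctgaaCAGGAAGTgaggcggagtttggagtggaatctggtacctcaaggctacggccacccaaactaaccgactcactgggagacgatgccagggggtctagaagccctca
Blnk, chr19:40994172-40994471, minus strand: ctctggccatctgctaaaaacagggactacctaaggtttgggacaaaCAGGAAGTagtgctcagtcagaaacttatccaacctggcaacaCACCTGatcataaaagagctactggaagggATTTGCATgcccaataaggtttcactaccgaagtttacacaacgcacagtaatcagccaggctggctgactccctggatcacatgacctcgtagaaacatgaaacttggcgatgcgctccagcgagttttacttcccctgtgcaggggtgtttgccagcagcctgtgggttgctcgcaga
Cd22, chr7:30878979-30879278, minus strand: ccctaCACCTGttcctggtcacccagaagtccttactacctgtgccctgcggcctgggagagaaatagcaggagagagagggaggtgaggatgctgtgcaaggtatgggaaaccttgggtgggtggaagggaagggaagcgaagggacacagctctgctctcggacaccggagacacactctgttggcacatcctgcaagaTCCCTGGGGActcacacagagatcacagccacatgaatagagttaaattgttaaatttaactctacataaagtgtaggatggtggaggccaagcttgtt

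Vpreb1 and Igll1 are direct neighbours in the same annotation, with 0 annotated genes between them. Vpreb2 is a close copy of Vpreb1, and the end of the Vpreb1 window matched the start of the Vpreb2 window at 153 of 156 bases without gaps. Both stretches are shown, with the 3 mismatches in capitals. They come from promoter windows, and that of Vpreb2 lies wholly before its annotated start, so they do not show what a probe set reads. A probe set annotated to both genes measures neither alone.
Vpreb1, chr16:16869206-16869361, minus strand: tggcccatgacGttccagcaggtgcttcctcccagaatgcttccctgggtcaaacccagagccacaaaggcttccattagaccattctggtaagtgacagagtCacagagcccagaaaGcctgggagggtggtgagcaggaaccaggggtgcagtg
Vpreb2, chr16:17980315-17980470, plus strand: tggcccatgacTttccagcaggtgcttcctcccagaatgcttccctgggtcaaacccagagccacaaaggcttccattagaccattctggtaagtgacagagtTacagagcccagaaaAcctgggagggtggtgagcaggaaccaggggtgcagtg

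Between Rb-null and control cells, Cd79b and Ms4a1, a receptor chain and CD20, were the members with the lowest p-values in the unpaired fit, both lower in Rb-null, and neither passed the test. Cd79b averaged 44.2 ± 18.7 in Rb-null cells and 114 ± 54.2 in control cells (SD, n = 3 each), a log2 fold change of -1.09 (SE 0.44). The brighter Ms4a1 probe set averaged 48.8 ± 7.25 in Rb-null cells and 89.5 ± 23.5 in control cells (SD, n = 3 each), a log2 fold change of -0.68 (SE 0.29). For Vpreb1, Igll1, Ebf1 and Pax5, the genes of the first steps, the groups overlapped for every probe set, and the brighter Igll1 probe set was lower in Rb-null in each pair. Of 27019 probe sets tested with limma, 0 passed at adjusted p under 0.05 (0% called), and 1119 stood at unadjusted p under 0.05. The 10 member probe sets among those tested all had a limma adjusted p of 1.00. Data were also simulated from a fit with the replicate number as a block, which favours that fit. There the unpaired fit passed none of the planted 2-fold and 4-fold changes, and the block fit recovered 65% and 100% of them. Changes under 2-fold were not planted. In data of that kind, a missed threshold in the unpaired fit says little about whether a member differed. Whether the measured data are of that kind was not tested. In the measured data the block fit also passed 0 of the 27019 probe sets at limma adjusted p under 0.05.

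Intensities per array are the deposited linear values, and fold changes are Rb-null over control on quantile normalized log2(value + 16), a scale that shrinks the differences of dim probe sets. A probe set was tested when its mean over the 6 arrays was above the 40th percentile, log2 5.12 or an intensity of 18.9. Of the 17 member probe sets, 10 passed this filter and 7 did not, leaving 8 of the 9 genes with a tested probe set. The probe set nearest above the filter was that of Vpreb1 (mean log2 5.18), and the nearest below was the dimmer of Pax5 (mean log2 4.98). At unadjusted p under 0.05 stood 3 of the 10, all lower in Rb-null, against 1.34% of all tested probe sets that were lower at this p. They were the Cd79b probe set and both of Ms4a1. That count was 0 without Rb-null replicate 1, Rb-null replicate 2 or control replicate 3, and 1 without Rb-null replicate 3 or control replicate 1. With 1 probe set per gene, 2 of the 8 members stood at this p, both lower, against 1.51% of all genes. Arrays carry a replicate number from 1 to 3 in each group, and arrays of the same number resembled each other, so they are also given as pairs. With the replicate number as a block, 5 of the 10 stood at unadjusted p under 0.05, all lower, against 7.78% of all, and 0 passed at adjusted p under 0.05 (0% of all, lowest member adjusted p = 0.151 with limma). A variance trend and robust fitting on top of the block, chosen after seeing the data, called 3.47% of all probe sets and 0 of the 10, with a lowest member adjusted p of 0.0933 for Cd79b.

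The sorted cells carried erythroid markers and markers of other lineages. Tfrc, which encodes CD71, read 7080 to 8506 in Rb-null cells and 6086 to 7960 in control cells, and Alas2, the first enzyme of heme synthesis, 8760 to 10602 in Rb-null cells and 9462 to 10602 in control cells. The granulocyte markers S100a8 and S100a9 were also far above the filter, with 9111 to 12419 for S100a8 in Rb-null cells and 10240 to 12488 in control cells, and 7107 to 10605 for S100a9 in Rb-null cells and 8643 to 10783 in control cells. Rb1 read 4045, 3670 and 2897 on Rb-null arrays 1, 2 and 3 and 2760, 2152 and 1379 on control arrays 1, 2 and 3. The labels do not place this probe set inside or outside the floxed part, and its level is no check of them. The 2 arrays numbered 3 stood apart in 18S ribosomal RNA signal, with 542 in Rb-null and 1231 in control, against 32.6 to 66.2 on the other 4. Array medians ran from 23.3 to 31.2, and precision is limited by there being 3 arrays a group.

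**Figure D1:**
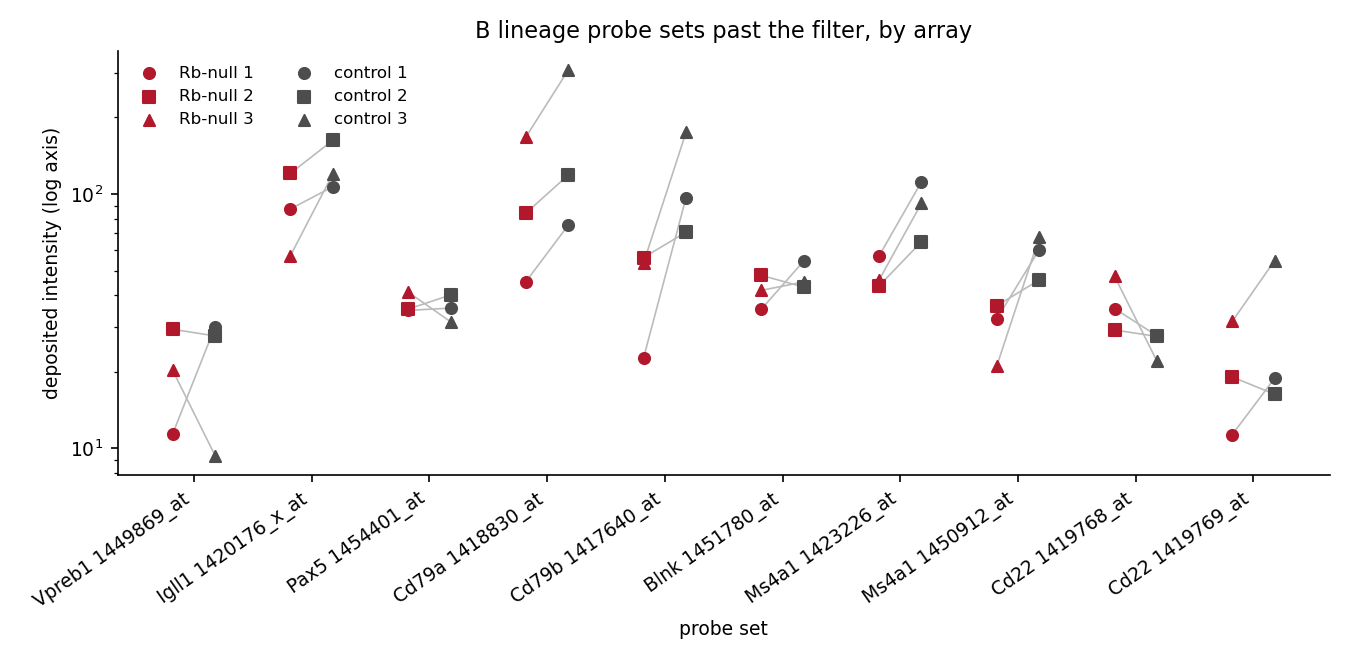
Deposited intensity (log axis) of the 10 B lineage probe sets past the filter on each array, with Rb-null arrays in red on the left and control arrays in grey on the right of each probe set, and lines joining arrays of the same replicate number. Cd79b and both Ms4a1 probe sets lie lower on all Rb-null arrays than on any control array, and the first Cd22 probe set lies higher.

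The surrogate light chain genes gave little signal that could be assigned. Vpreb1 (probe set 1449869_at) read 11.4, 29.4 and 20.2 on Rb-null arrays 1, 2 and 3 and 30.1, 27.6 and 9.35 on control arrays 1, 2 and 3. The groups overlapped, with the highest and the lowest value both among the controls, and the log2 fold change was -0.056 (SE 0.32). The probe set that reads Vpreb2 as well as Vpreb1 read 5.22, 5.18 and 5.44 in Rb-null cells and 6.45, 9.37 and 17.1 in control cells, below the filter.

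Igll1, also called lambda5, was read by 2 probe sets that disagreed in sign. The brighter, 1420176_x_at, read 87.3, 120.6 and 57.2 on Rb-null arrays 1, 2 and 3 and 106.8, 162.7 and 120.0 on control arrays 1, 2 and 3. It was lower on the Rb-null array of each pair, by log2 differences of -0.20, -0.39 and -0.92 for pairs 1, 2 and 3, while the groups overlapped (log2 fold change -0.50, SE 0.29). The other, 1420177_at, read 10.7, 14.1 and 2.01 in Rb-null cells and 9.45, 13.9 and 0.933 in control cells, below the filter, and was higher in each pair by at most 0.09 on the log2 scale. The annotation pairs both with Igll1 and gives no accession for either, and the suffix of the brighter one marks probes that can also bind other transcripts, so its level is uncertain as a measure of Igll1.

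The lineage transcription factors showed no shared direction. All 5 Ebf1 probe sets were below the filter, with intensities from 1.23 to 35.8 over the 6 arrays, and their values overlapped between groups. Ebf1 probe sets 1416301_a_at and 1448293_at were lower in Rb-null in each pair, while 1416302_at was higher in each pair, so the Ebf1 probe sets disagreed in sign. Pax5 was read at an even level by its brighter probe set, 1454401_at, with 34.9, 35.3 and 41.1 on Rb-null arrays 1, 2 and 3 and 35.6, 40.1 and 31.5 on control arrays 1, 2 and 3. Its log2 fold change was 0.053 (SE 0.26), and its sign changed with the setting. The dimmer Pax5 probe set did not exceed 24.9.

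The receptor chains Cd79a and Cd79b were lower on the Rb-null array of each pair, and neither passed the test. Cd79a (1418830_at) read 45.2, 84.1 and 167.6 on Rb-null arrays 1, 2 and 3 and 75.4, 118.8 and 307.4 on control arrays 1, 2 and 3. In both groups the array numbered 3 was highest and the array numbered 1 lowest, and the groups overlapped, yet the Rb-null array was lower in each pair, by -0.53, -0.43 and -0.82 on the log2 scale. The log2 fold change was -0.59 (SE 0.62, and 0.16 with the replicate block, where the unadjusted p was 0.011 and the limma adjusted p 0.181). Without control replicate 3, an array high in 18S signal, the unpaired log2 fold change was 0.027, without Rb-null replicate 3 it was -1.11, and without both arrays numbered 3 it was -0.49. The part of the 18S signal in this value was not tested.

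Cd79b (1417640_at) read 22.7, 56.2 and 53.7 on Rb-null arrays 1, 2 and 3 and 96.7, 70.8 and 174.8 on control arrays 1, 2 and 3. The groups did not overlap, and the pair differences were -1.51, -0.27 and -1.50 on the log2 scale, smallest in pair 2. Leaving out 1 array at a time gave log2 fold changes from -1.38 to -0.68. Blnk (1451780_at) read 35.2, 47.9 and 41.8 in Rb-null cells and 54.5, 43.0 and 45.1 in control cells, a log2 fold change of -0.14 (SE 0.26), and its groups overlapped.

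The genes of the later B cell surface gave values in opposite directions, none past the test. Ms4a1 probe set 1423226_at read 57.1, 43.5 and 45.9 on Rb-null arrays 1, 2 and 3 and 111.7, 64.9 and 92.0 on control arrays 1, 2 and 3. Ms4a1 probe set 1450912_at read 32.3, 36.4 and 21.1 on Rb-null arrays and 60.4, 45.9 and 67.5 on control arrays. Both probe sets were lower on each Rb-null array than on any control array, with log2 fold changes of -0.68 (SE 0.29) and -0.70 (SE 0.28). Both were annotated through the same sequence accession, so they are not independent measurements of the gene.

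Cd22 gave no single direction. Its brighter probe set, 1419768_at, read 35.4, 29.2 and 47.5 on Rb-null arrays 1, 2 and 3 and 27.7, 27.5 and 22.0 on control arrays 1, 2 and 3, higher in each pair and without overlap (log2 fold change 0.36, SE 0.28). This fold change was 0.16 without Rb-null replicate 3, 0.17 without both arrays numbered 3 and 0.50 without Rb-null replicate 2. Its other probe set, 1419769_at, read 11.3, 19.1 and 31.5 in Rb-null cells and 18.8, 16.3 and 54.7 in control cells, with overlap and a log2 fold change of -0.27 (SE 0.43), which ran from -0.54 without Rb-null replicate 3 to -0.037 without Rb-null replicate 1. The Cd22 probe sets therefore disagreed in sign, although the annotation gives them the same sequence accession.

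**Figure D2:**
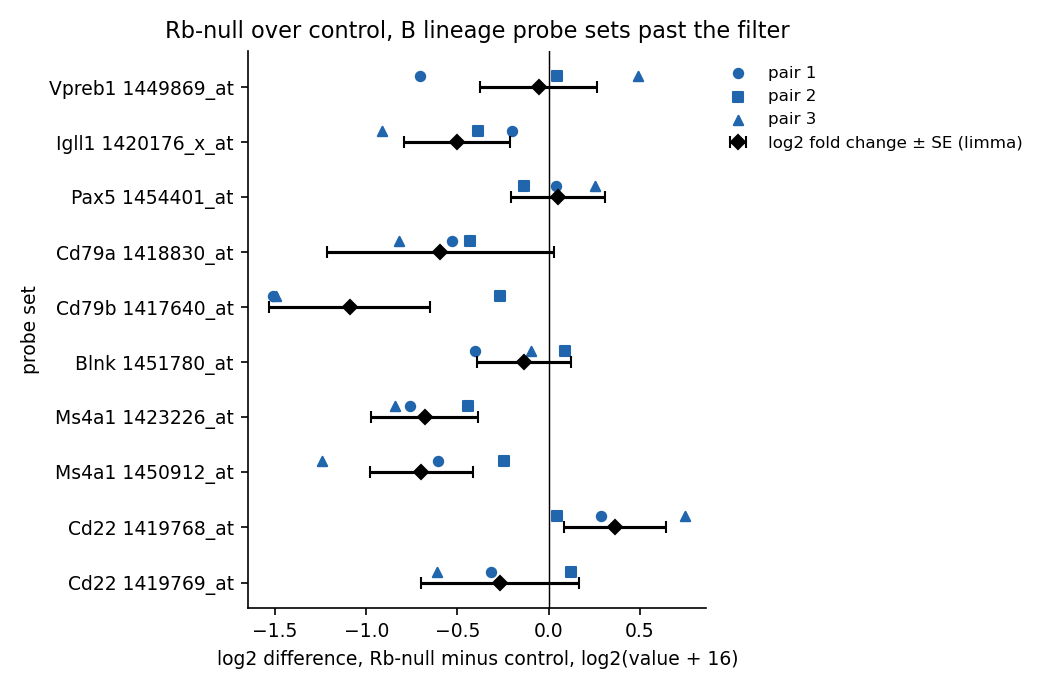
Log2 difference, Rb-null minus control, of the 10 member probe sets past the filter, with black diamonds for the limma fold change with its SE and blue symbols for the 3 pairs of arrays. Igll1, Cd79a, Cd79b and both Ms4a1 probe sets are below 0 in all 3 pairs, and Cd22 1419768_at is above 0 in all 3.

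Counted over all 17 member probe sets, with those below the filter included, 7 were lower in Rb-null in all 3 pairs, against 18.4% of all 45032 probe sets, and 3 were higher in all 3 pairs, against 17.3%, a share near the background. Groups did not overlap with Rb-null lower for 3 of the 17, the Cd79b probe set and both of Ms4a1, against 3.68% of all probe sets, and for 4 in either direction, against 8.52%. Negative fold changes were found for 11 of the 17, against 51.3% of all. The median log2 fold change of the 17 was -0.14, and that of all probe sets -0.01. Probe sets of a gene share their transcript, so these counts hold fewer independent items than probe sets. In RNA from a sorted population, fewer B cells and less of these RNAs per B cell cannot be told apart.

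To set early against mature genes on each array, the brightest probe set of each gene was expressed as its log2 deviation from its own mean over the 6 arrays, since levels of different probe sets cannot be compared. The early level, the mean of Vpreb1 and Igll1, was -0.37, 0.17 and -0.22 on Rb-null arrays 1, 2 and 3 and 0.09, 0.34 and -0.01 on control arrays 1, 2 and 3. The mature level, the mean of Ms4a1 and Cd22, was -0.08, -0.33 and 0.16 on Rb-null arrays and 0.16, -0.13 and 0.21 on control arrays. Each was lower on the Rb-null array of every pair, and for each the groups overlapped. The genes within each level did not move together. In the mature level Ms4a1 was lower in every pair, by -0.76, -0.44 and -0.84, while Cd22 was higher, by 0.29, 0.045 and 0.75. In the early level Igll1 was lower in every pair, while Vpreb1 differed by -0.70, 0.046 and 0.49 in pairs 1, 2 and 3.

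The early level minus the mature level was -0.29, 0.49 and -0.38 on Rb-null arrays 1, 2 and 3 and -0.07, 0.47 and -0.22 on control arrays 1, 2 and 3. It was highest on the array numbered 2 in both groups and below 0 on the other 4, so it followed the replicate number. It averaged -0.06 ± 0.48 in Rb-null cells and 0.06 ± 0.36 in control cells (SD, n = 3 each), a difference of -0.12. By pairs the difference was -0.22, 0.027 and -0.17, below 0 in 2 of the 3. No test was made of these levels, as the members were chosen with results of these arrays known. With both Ms4a1 and both Cd22 probe sets averaged, a setting chosen after seeing the data, the mature level was -0.32 in Rb-null minus control, against -0.16 with the brightest probe sets, and the early minus mature difference was 0.04. That difference was also above 0 without Rb-null replicate 3 (0.044) or control replicate 2 (0.083).

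**Figure D3:**
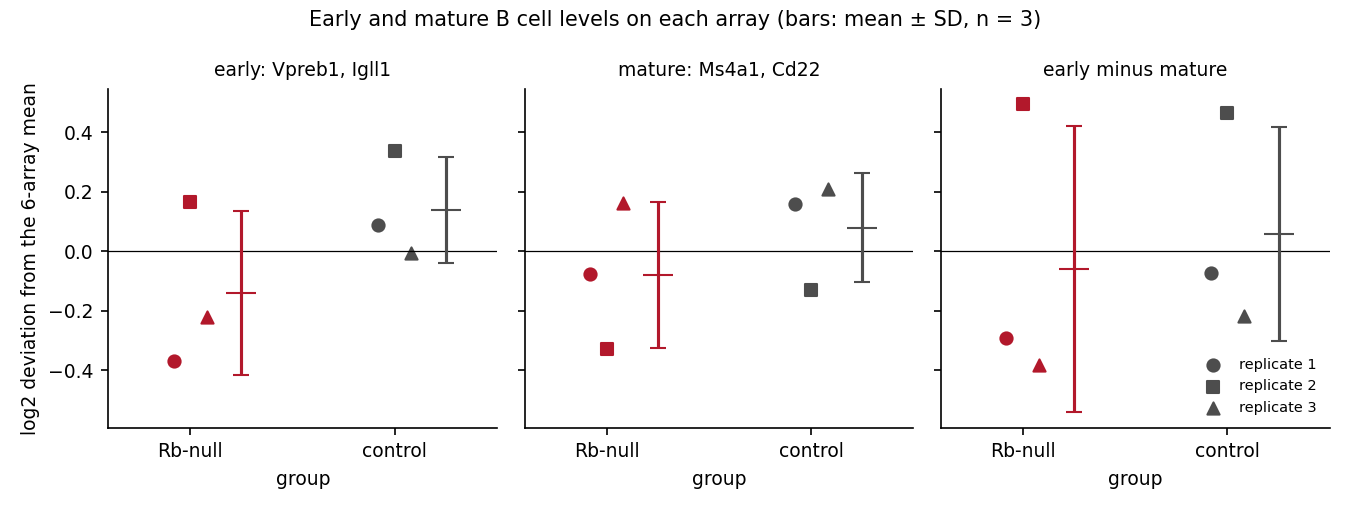
Log2 deviation from the 6-array mean of the early genes, the mature genes and their difference, with Rb-null arrays (red) left of control arrays (grey), a symbol for each replicate number, and bars for mean ± SD (n = 3). Arrays numbered 2 lie highest in the early minus mature panel in both groups, at 0.49 in Rb-null and 0.47 in control.

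Over the 8 members past the filter, the mean B lineage level was -0.45, -0.15 and 0.11 on Rb-null arrays 1, 2 and 3 and 0.02, 0.03 and 0.44 on control arrays 1, 2 and 3. Rb-null arrays were lower in each pair, by -0.47, -0.18 and -0.33 on the log2 scale, and the groups overlapped because Rb-null array 3 was above control arrays 1 and 2. Granulocyte markers were also lower by their median, most in pairs 1 and 3. All 14 of 16 listed that had a named probe set had a negative log2 fold change (median -0.51), with pair medians of -0.82, -0.01 and -0.64 for pairs 1, 2 and 3, and their summed intensity ran from 28372 to 57658 in Rb-null cells and from 38760 to 58199 in control cells, and 0 of the 14 were at 0 on any array. Markers of macrophages and dendritic cells had a median of -0.33 over the 11 of 14 that passed the filter, 8 of them negative. Over all 13 with a named probe set, summed intensities were 1818 to 2192 in Rb-null cells and 1995 to 3112 in control cells. T and NK cell markers had a median of -0.06 over the 7 of 16 that passed, 4 of them negative. Over all 12 with a named probe set, sums were 577 to 951 in Rb-null cells and 585 to 1072 in control cells. No macrophage, dendritic, T or NK cell marker with a named probe set was at 0 on any array. The part of these other cell types in the B lineage values was not tested.

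Further B lineage genes were read from lists chosen by function, with each gene represented by its brightest probe set. Of 69 genes listed in 4 groups, 64 had a named probe set and 53 passed the filter, and limma called 0 in either direction (0% of all tested probe sets). At unadjusted p under 0.05 stood 0 lower, against 1.34% of all tested probe sets, and 1 higher, against 322 of the 13232 genes past the filter. Negative log2 fold changes were found for 39 of the 53, against 54.6% of the 13232 genes past the filter. Lower in all 3 pairs were 14 of the 53, against 24.1% of all genes, a share near the background. After normalization the groups did not overlap, with Rb-null lower, for 1 of the 53, against 4.78% of all genes. It was Pou2af1, a B cell coactivator of octamer factors, named here after its values were seen, with 42.1, 58.7 and 32.7 on Rb-null arrays 1, 2 and 3 and 106, 58.4 and 58.3 on control arrays 1, 2 and 3.

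Among 11 early B genes beyond the members that passed the filter, 7 had negative log2 fold changes, with a median of -0.11. Over all 15 with a named probe set, the summed intensity was 9950 to 11603 in Rb-null cells and 8973 to 10563 in control cells. The brightest gene, Cd24a, a surface glycoprotein that erythroid precursors carry as well, read 9085 to 10610 in Rb-null cells and 8032 to 9691 in control cells, and was higher in Rb-null in each pair. Igfbp4, Sox4 and Myb were next, with Myb, a factor of progenitors of many lineages, at 52.3 to 237 in Rb-null cells and 40.4 to 142 in control cells. Regulators beyond Ebf1 and Pax5 had a median of -0.22 over 12 genes past the filter, 9 of them negative. Sums over all 15 with a named probe set were 1950 to 2633 in Rb-null cells and 2218 to 2534 in control cells. Tcf3, which encodes E2A and acts with Ebf1, read 146 to 408 in Rb-null cells and 132 to 357 in control cells, while Ikzf1, the lymphoid factor Ikaros, read 248 to 917 in Rb-null cells and 363 to 926 in control cells, and both overlapped.

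Receptor signalling genes beyond the members had a median of -0.24 over 13 genes, 11 of them negative, and sums of 2288 to 2842 in Rb-null cells and 2266 to 3126 in control cells. The sums of the early, regulator and receptor signalling lists all overlapped between groups. Cd81, a tetraspanin of the B cell coreceptor found on many cell types, read 1131, 1062 and 695 on Rb-null arrays 1, 2 and 3 and 689, 677 and 374 on control arrays 1, 2 and 3. It was higher in each pair, with groups that did not overlap, and did not pass the test (limma adjusted p = 1.00). Mature B genes beyond the members had a median of -0.15 over 17 genes past the filter. Of these 12 were negative, against 54.6% of all genes, and 7 lower in all 3 pairs, against 24.1% of all genes. Among the 14 granulocyte markers, 7 were lower in all 3 pairs as well. Over all 21 mature B genes with a named probe set, those below the filter included, the summed intensity was 789 to 892 in Rb-null cells. It was 981 to 1047 in control cells, which did not overlap. These sums, like those of the other lists, add deposited values before normalization, and 1 of the 21 genes was at 0 on an array. After normalization, 0 of the 17 past the filter were lower in Rb-null without overlap, against 4.78% of all genes. How often such sums separate in lists of other genes was not tested. Pair medians of the 17 past the filter were -0.18, -0.13 and -0.15, while those of the early list were -0.12, 0.13 and -0.02. Tnfrsf13c, the receptor for the survival factor BAFF, read 64.1 to 89.0 in Rb-null cells and 73.3 to 91.4 in control cells. Its log2 fold change was -0.15. Cd55, Tnfrsf13b and Fcmr, also among the brightest of this list, had log2 fold changes of 0.14, 0.15 and -0.031. The brightest genes of the mature list thus gave no single direction.

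Immunoglobulin and plasma cell genes had a median of -0.22 over 10 genes past the filter, 7 of them negative. At adjusted p under 0.05 limma called 0 of them (0% of all tested probe sets). At unadjusted p under 0.05 stood 1, lower in Rb-null, against 1.34% of all tested probe sets that were lower at this p. Over all 11 with a named probe set, the summed intensity was 1348 to 1632 in Rb-null cells and 1753 to 2129 in control cells, which did not overlap either. Ighm, the heavy chain of IgM, read 217, 342 and 422 on Rb-null arrays 1, 2 and 3 and 363, 353 and 744 on control arrays 1, 2 and 3, lower in each pair with overlap between groups. Igha, the heavy chain of IgA, read 255 to 394 in Rb-null cells and 309 to 593 in control cells and was also lower in each pair. Their probe sets can bind related immunoglobulin transcripts, so these values are uncertain for the single genes.

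**Figure D4:**
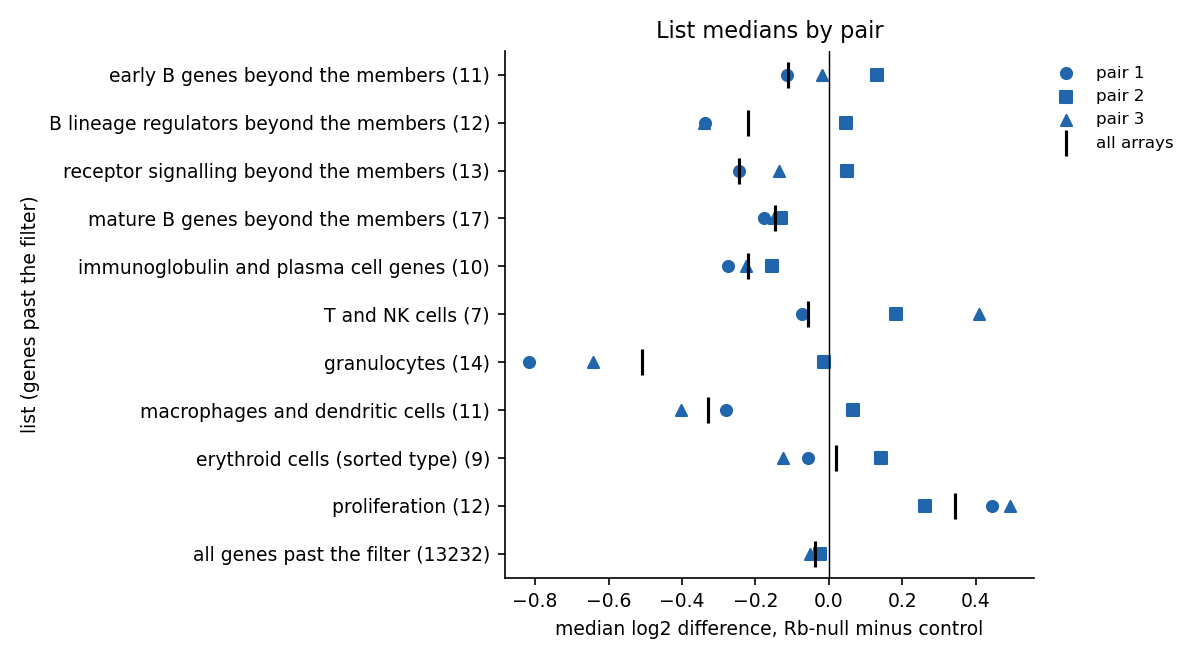
Median log2 difference, Rb-null minus control, of each list by pair (blue symbols) and over all arrays (black ticks), with the number of genes past the filter in parentheses. Mature B, immunoglobulin and granulocyte lists are below 0 in all 3 pairs, the last at -0.01 in pair 2. All genes past the filter are also below 0 in each pair, at -0.03, -0.02 and -0.05. The early B list is at 0.13 in pair 2.

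Proliferation genes, which dividing pre-B cells and erythroid precursors both use, had a median of 0.35 over 12 genes, 11 of them positive. At adjusted p under 0.05 limma called 0 of them (0% of all tested probe sets). At unadjusted p under 0.05 stood 1, higher in Rb-null, against 322 of the 13232 genes past the filter that were higher at this p. Genes whose pattern over the 6 arrays lay nearest to the members were sought among 7275 genes with a range of at least 1 on the log2 scale. Nearest to the early level were Ndufb5, Alad, Paics, Pmpcb and Rapgef1, with root mean square differences of 0.12 to 0.15 on the log2 scale. Nearest to the mature level were 4833427F10Rik, Ttf1, Foxn3, Krtcap3 and Avpr2, with 0.16 to 0.19. Of these 10 genes 0 were in any of the B lineage lists. The early and mature profiles themselves ranged over only 0.70 and 0.54, below the range asked of the candidates. Genes as flat as the profiles were thus left out in advance. How many of the 7275 candidates are in the lists was not counted, so the 0 of 10 is no result about B lineage genes.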

How the data were processed

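RNA of 6 sorted bone marrow samples, 3 Rb-null and 3 control as the labels name them, was read on single-colour arrays. The authors deposited linear intensities per probe set, and the sources used here do not state how scans were summarised and scaled. Of 45101 probe sets, 64 control probe sets, 4 empty ones and 1 whose value exceeded what a scanner of 16 bits can give were removed. The remaining 45032 carried 1 gene symbol (34941), several (932) or none (9159) in the platform annotation. From the deposited intensities, log2(value + 16) was taken and quantile normalized, and those whose mean exceeded the 40th percentile were tested with limma 3.58.1 in R 4.3.3, unpaired, with Benjamini-Hochberg adjustment over 27019 probe sets. Threshold was adjusted p under 0.05. On simulated data drawn from the block fit, which favours it, the unpaired fit passed none of the planted changes and the block fit recovered most.

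Deviations from the group means correlated across probe sets between arrays of the same number (r of 0.639, 0.621 and 0.667). Between other numbers r ran from -0.500 to 0.0719, and was -0.500 to -0.454 wherever an array numbered 3 was involved. Taking deviations from a mean of 3 arrays itself pushes these values below 0. The numbers were taken as pairs on the evidence of the data and not of the labels.

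The members and gene lists were chosen with earlier results of these data known. Genes named are the 9 members, genes from among the 4 brightest of each list, and the 5 nearest in pattern to the early and to the mature profile. Not all of the 4 brightest of each list are named, and none of the macrophage and dendritic, T and NK cell or proliferation lists. The choice among them followed no fixed rule. Outside this rule stand Rb1, as the targeted gene, and Pou2af1, named after its values were seen. Alternatives were other scalings, offsets, filters, variance models, array weights, the replicate block and left-out arrays.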

Additional observations from a re-analysis of the deposited data

How the results depend on the processing

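Under all 18 alternative settings, 0 member probe sets passed limma's adjusted p under 0.05, and Igll1, Cd79b, Blnk and the brighter Ms4a1 probe set kept the sign of their log2 fold changes. The other Ms4a1 probe set kept it in the 17 settings that tested it, and the Cd22 probe sets in 17 and 14. Settings that change only the filter, the probe sets per gene, the variance model or the block leave each fold change as it was by construction. Signs could change only with other scalings, offsets, array weights or left-out arrays. The brighter Pax5 probe set turned to -0.030 with array weights and -0.049 without both arrays numbered 3. Leaving out 1 array at a time gave -0.071 to 0.12 for Pax5, -0.26 to 0.17 for Vpreb1 and -1.11 to 0.027 for Cd79a, with 0.16 to 0.50 and -0.54 to -0.037 for the Cd22 probe sets and -0.22 to -0.023 for Blnk. The same settings gave -0.47 to -0.19 for the B lineage level, -0.43 to -0.16 for the early level, -0.28 to -0.04 for the mature level and -0.39 to 0.08 for early minus mature. With all probe sets past the filter averaged per gene, a setting chosen after seeing the data, the mature level was -0.32. The B lineage level was -0.60 with a filter at the 60th percentile, which leaves 5 genes by its construction; the early and mature levels have no value there. The cause of the other changes was not tested. With the replicate block, 5 member probe sets against 3 stood at unadjusted p under 0.05, and the block changed no call. Signal near or below the filter limits the Ebf1 and Vpreb1 values.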
